A study of Mus musculus with 12 samples.

Results

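The 52 genes described here all lie on mouse chromosome 15, and their RNA was proposed to be lower together in part of 12 RNA-seq libraries. The cells were CGR8, a line of mouse embryonic stem cells. The genes were chosen by symbol from a fixed list that was drawn up with earlier results of the same libraries known, and the values behind each choice are not recorded. All 52 matched 1 Ensembl gene each, all lay on chromosome 15 (first start 32920723, last end 103246692, build GRCm38), and all 52 passed the filter on low counts, out of 21053 tested genes. Another 753 tested genes lie on the same chromosome. Since the list was chosen for a decrease that is taken to be that of netrin-1 WT against control, values and counts of calls in that comparison only describe the list. They are no test of the members, since the choice already used them, and nothing is supported with them.

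All groups were grown in serum with LIF (leukemia inhibitory factor, a cytokine that keeps such cells pluripotent), and all were stably transfected with the same kind of plasmid, ppy-cagg-ires-puro. In the neo1 MUT group (n = 3) and the unc5B MUT group (n = 3) it encoded a variant of netrin-1, a secreted guidance protein whose receptors include neogenin and the Unc5 family; the labels give the variants as neo1 MUT and unc5B MUT and do not state the changes. In the netrin-1 WT group (n = 3) it encoded the netrin WT form, and in the control group (n = 3) it was empty. The promoter of the transgene is given only through the name of the plasmid. The labels do not say whether a group was a pool or 1 clone, nor whether its 3 libraries came from separate cultures, so p-values measure only the spread between these libraries.

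The members share a chromosome and not a pathway. They encode, among others, the transcription factor Myc, the cohesin subunit Rad21, translation initiation factors, chromatin readers of the CBX family, nuclear transport proteins and cytoskeletal proteins. In embryonic stem cells Myc and cohesin are known for roles in growth and in the folding of chromatin. In general, genes of 1 chromosome need not be regulated together, and a shift that touches most of a chromosome is read from the median of all its genes. RNA counts do not give the number of copies of a chromosome, and the part of copy number in these results was not tested.

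Summed counts ranged from 22256195 to 59735737 per library. The 4 libraries numbered 3, 1 in each group, stood apart, with 22256195 to 24736421 counts and 3.16% to 3.47% of counts on processed pseudogenes, against 1.48% to 1.81% in numbers 1 and 2. Ntn1, the gene of the transgene, had between 34.9 and 321.7 CPM (counts scaled to library size with TMM) in the neo1 MUT and unc5B MUT libraries, 287.6, 222.8 and 76.9 in netrin-1 WT libraries 1 to 3, and 15.4, 9.09 and 0.782 in control libraries 1 to 3, so it was high in each library labelled with a transgene compared with the control of the same number. Netrin-1 WT library 3 went with the controls on chromosome 15, as described next. Counts of called members that rest on it are given with and without it. Fitted fold changes of single genes in netrin-1 WT are given only with it. Libraries that share a number also shared their deviations from the group means, so fold changes (log2, with SE) and adjusted p-values come from an edgeR quasi-likelihood fit with the library number as a block unless stated otherwise, and "called" means a Benjamini-Hochberg adjusted p under 0.05 over all tested genes.

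Chromosome 15 gave a smaller share of all counts in neo1 MUT libraries and in netrin-1 WT libraries 1 and 2. The share was 4.22%, 4.23% and 4.58% in neo1 MUT libraries 1, 2 and 3, 5.54%, 5.67% and 6.34% in unc5B MUT, 4.13%, 4.24% and 6.01% in netrin-1 WT, and 5.59%, 5.73% and 6.16% in control. Set against the control library of the same number, the share was 0.755, 0.738 and 0.744 times as large in neo1 MUT, 0.991, 0.990 and 1.03 times in unc5B MUT, 0.738 and 0.740 times in netrin-1 WT libraries 1 and 2, and 0.975 times in netrin-1 WT library 3. The neo1 MUT share averaged 4.35% ± 0.21 and the unc5B MUT share 5.85% ± 0.43 (SD, n = 3 each), with no overlap between the groups. An exact two-sided permutation test of that difference gave p = 0.1, the smallest that 3 against 3 libraries allow. The test took no account of the library numbers. The chromosome was singled out with results of these libraries known, so this p-value only describes them and is no support.

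**Figure D1:**
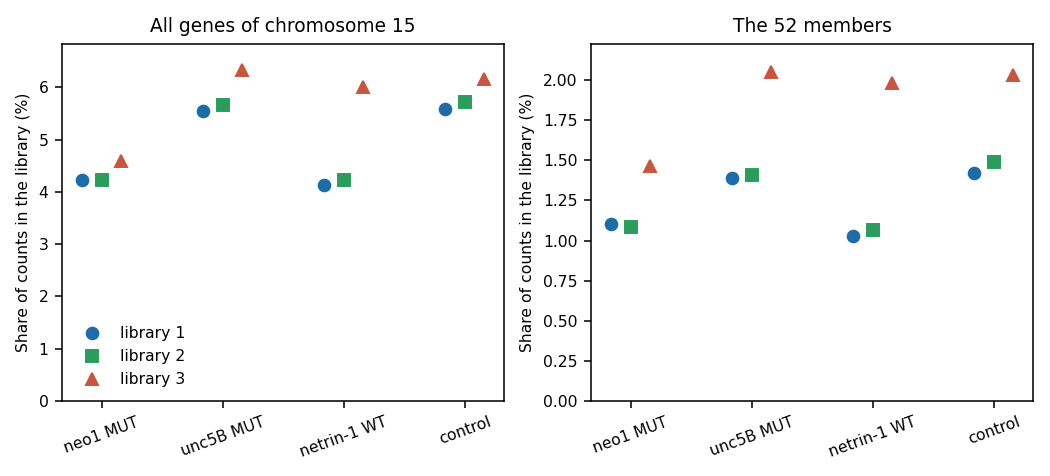
Share of each library's counts from all annotated genes of chromosome 15 (left) and from the 52 members (right), in percent, for the 4 groups; each symbol is 1 library, and its shape and colour give the library number. The 3 neo1 MUT libraries and netrin-1 WT libraries 1 and 2 lie between 4.13% and 4.58% of counts on chromosome 15, and the other libraries between 5.54% and 6.34%.

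The members' own share followed the chromosome. It was 1.10%, 1.08% and 1.47% in neo1 MUT libraries 1, 2 and 3, 1.39%, 1.41% and 2.05% in unc5B MUT, 1.03%, 1.07% and 1.98% in netrin-1 WT, and 1.42%, 1.49% and 2.03% in control. It was higher in every number 3 library than in numbers 1 and 2 of its group, so the neo1 MUT and unc5B MUT groups overlapped. The exact permutation test gave p = 0.3, which likewise ignores the library numbers and only describes these libraries. Within a number the neo1 MUT share was 0.792, 0.769 and 0.716 times that of unc5B MUT.

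Over genes above 10 CPM, the median log2 difference of chromosome 15 was set beside those of the other 19 chromosomes. It stood outside their range for neo1 MUT against control and against unc5B MUT. Over 400 genes it was -0.44 for neo1 MUT against control (other chromosomes -0.07 to 0.05) and -0.49 for neo1 MUT against unc5B MUT (other chromosomes -0.17 to 0.07), with 379 of 400 genes below 0 in the second. Within numbers 1, 2 and 3 the second median was -0.47, -0.48 and -0.51. Between unc5B MUT and control it was 0.04, inside the range of the others (-0.05 to 0.19). Chromosome 3 set that upper end, with 10.4% of its genes below 0, and the next highest was chromosome 8 at 0.06. It also set the -0.17 for neo1 MUT against unc5B MUT. For netrin-1 WT against control the chromosome 15 median was -0.34 in all (other chromosomes -0.11 to 0.06). Within numbers 1, 2 and 3 it was -0.49, -0.46 and -0.06. For neo1 MUT against netrin-1 WT it was -0.12, also outside the range of the others (-0.05 to 0.07). Within numbers 1, 2 and 3 that median was 0.06, -0.025 and -0.34, so it rested on number 3.

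**Figure D2:**
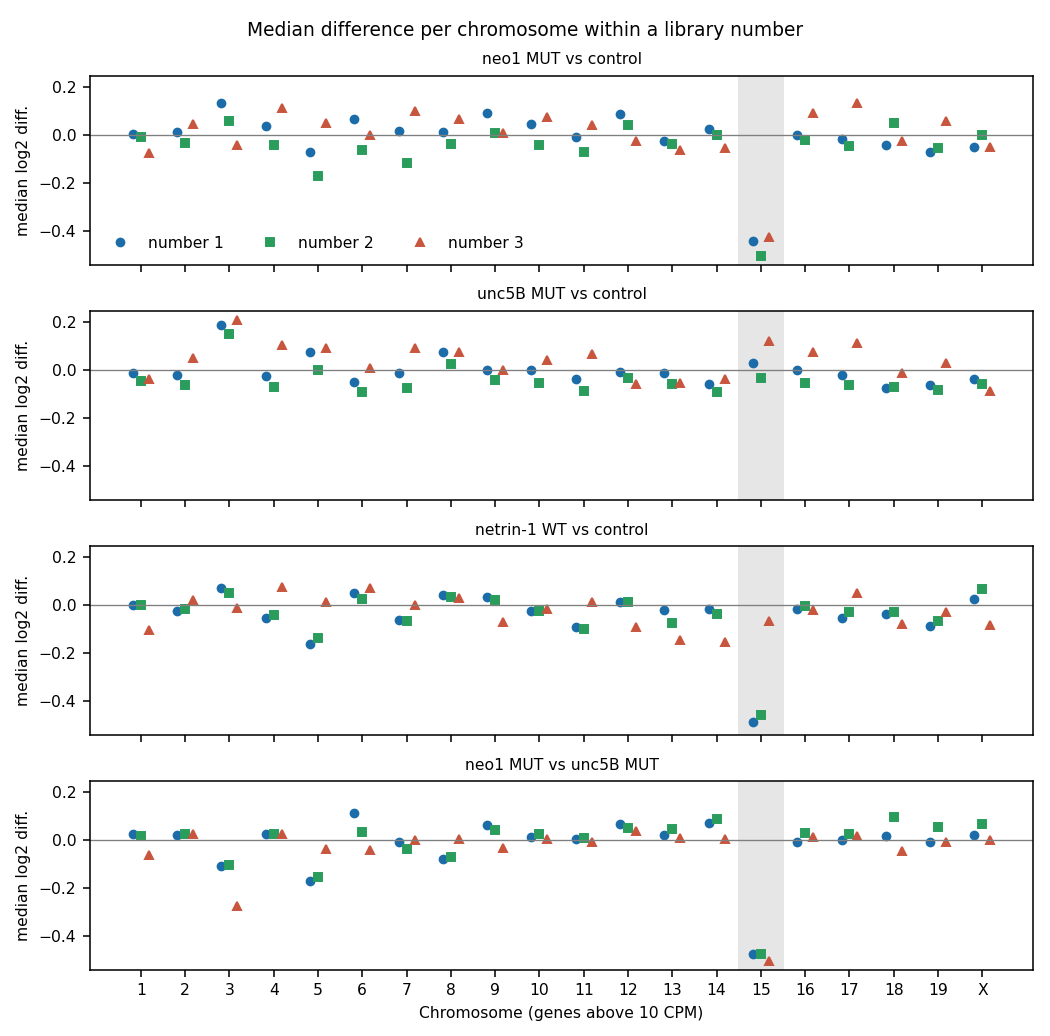
Median log2 difference per chromosome between libraries of the same number (genes above 10 CPM), for 3 comparisons with control and for neo1 MUT against unc5B MUT; circles, squares and triangles are numbers 1, 2 and 3, and the grey band marks chromosome 15. In neo1 MUT against unc5B MUT the 3 symbols of chromosome 15 lie between -0.51 and -0.47. The lowest of any other chromosome is -0.27, for chromosome 3 in number 3.

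The shift was spread along the chromosome. In stretches of 10 Mb with at least 20 such genes, of which there were 6, the median for neo1 MUT against unc5B MUT lay between -0.54 and -0.39. Over all 11 stretches, some with as few as 6 genes, it lay between -0.62 and -0.33. For unc5B MUT against control the 6 well-filled stretches lay between -0.03 and 0.07.

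**Figure D3:**
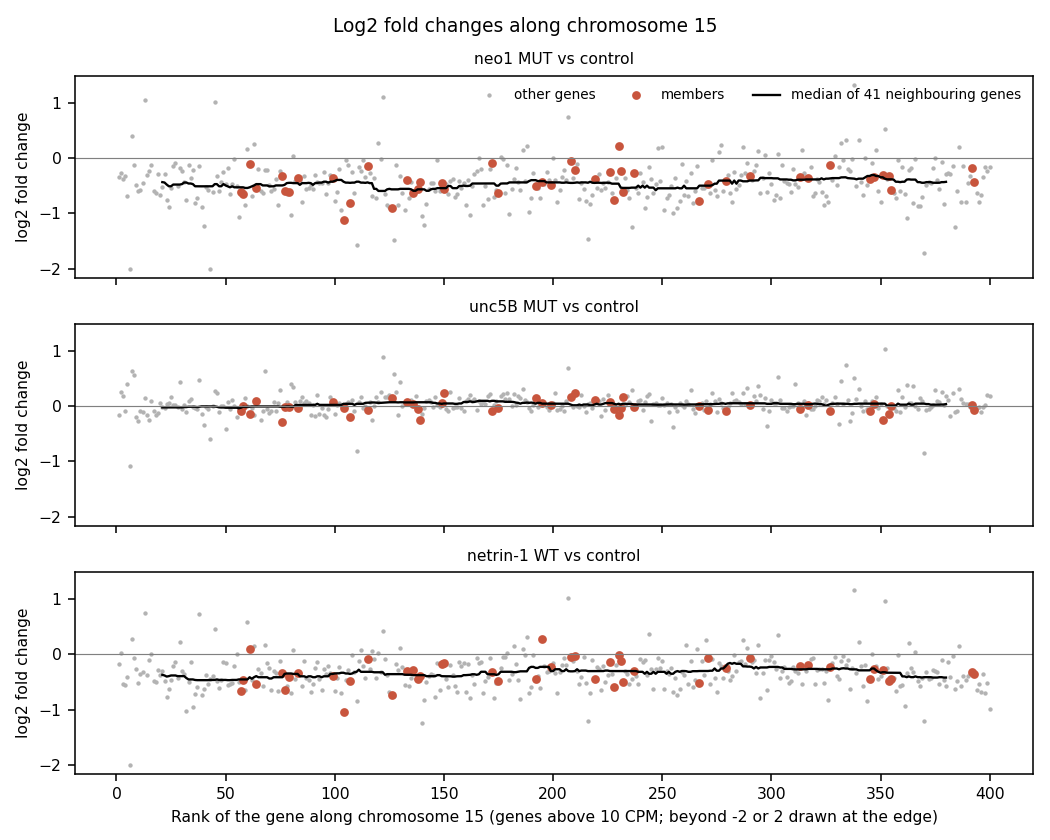
Log2 fold changes of 400 genes above 10 CPM by their rank along chromosome 15, for each transgene group against control; red points are the 47 members above 10 CPM, grey points other genes, and the black line the median of 41 neighbouring genes. The line stays below 0 along the chromosome for neo1 MUT and netrin-1 WT and near 0 for unc5B MUT, and members are scattered among the other genes.

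The members lay near the rest of the chromosome, as medians show. Their median log2 fold change was -0.32 for netrin-1 WT against control, beside -0.28 for the other 753 genes and 0.01 for all tested genes. For neo1 MUT against control it was -0.40 for members, -0.40 for the other genes and 0.02 for all. For neo1 MUT against unc5B MUT it was -0.41, -0.44 and -0.002. For unc5B MUT against control it was -0.01, 0.06 and 0.02. The comparisons with control share the control libraries, and those with netrin-1 WT share its libraries. Only neo1 MUT against unc5B MUT shares no library with netrin-1 WT against control, which is taken to be the comparison behind the choice. The list was drawn up with results of the same libraries known, so neo1 MUT against unc5B MUT is no independent test either.

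**Figure D4:**
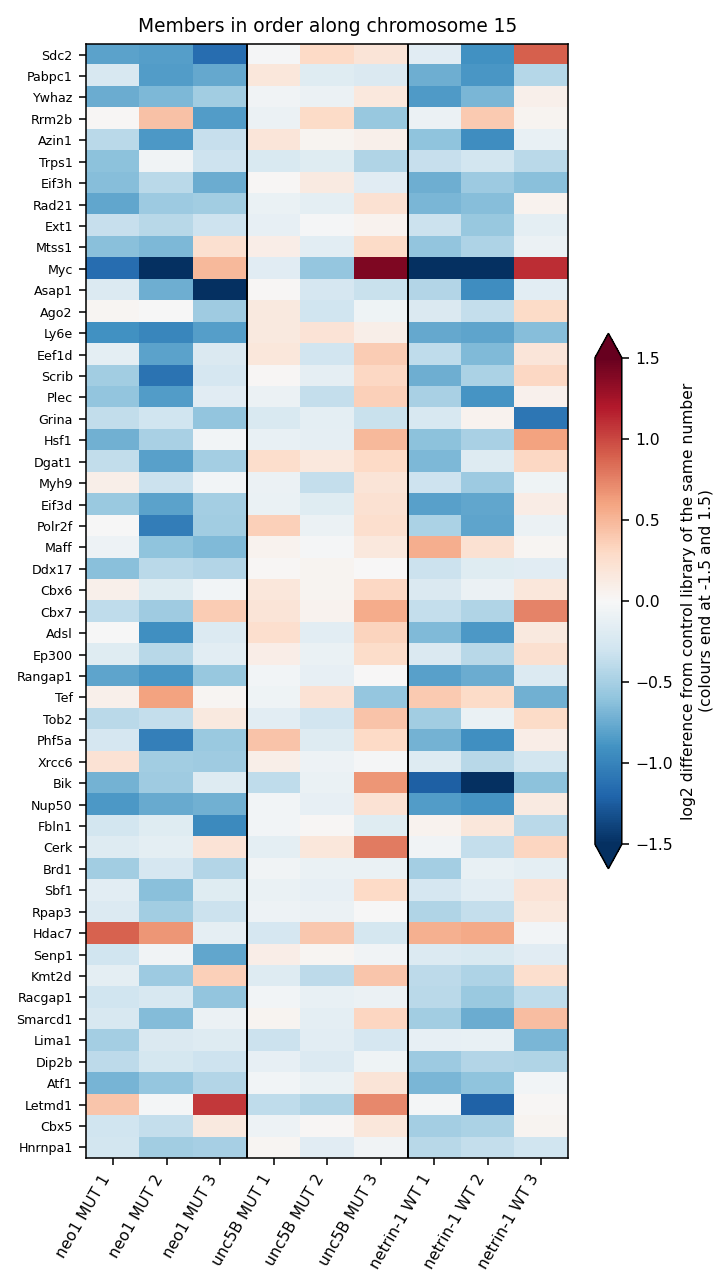
Log2 difference of each member from the control library of the same number, in the 9 libraries with a netrin-1 transgene; rows follow the order along chromosome 15, and blue is lower than control. The median member is at -0.32, -0.53 and -0.33 in neo1 MUT, at -0.04, -0.12 and 0.18 in unc5B MUT, at -0.45 and -0.47 in netrin-1 WT libraries 1 and 2, and at 0.02 in library 3.

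In neo1 MUT against unc5B MUT, 10 of 52 members (19.2%) were called lower and 0 higher, where 3.28% of all tested genes were called lower. Of the other 753 genes of the chromosome, 130 (17.3%) were called lower. The 10 members were Ly6e, Eif3h, Ddx17, Rangap1, Atf1, Nup50, Rad21, Ywhaz, Azin1 and Dgat1. In all, 48 members had a log2 fold change below 0, 42 of them were below 0 in each of the 3 numbers, and 33 had a 95% interval wholly below 0. For 15 members the groups did not overlap. Of all tested genes 50.2% were below 0, and of the other genes of the chromosome 83.1%. The counts over the numbers, of intervals and of groups without overlap were not taken over all tested genes, so they only describe the members. The 4 members above 0 were Hdac7, Letmd1, Tef and Rrm2b.

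These calls depended on the block. The edgeR fit without it called 0 members in this comparison and 0.133% of all tested genes in either direction. That fit put 6 members and 1443 of 21053 tested genes at an unadjusted p under 0.05. Without the block DESeq2 called 2 members (2.06% of all genes) and limma-voom 0 (0.133%). Shares for DESeq2 are of the genes to which it gave an adjusted p. Without the number 3 libraries, the fit with the block called 18 members lower (6.06% of all tested genes). Leaving out any single library of these 2 groups left 1 to 4 members called, beside 0.61% to 2.25% of all tested genes called in either direction, and Ly6e stayed called in all 6 such fits.

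For netrin-1 WT against control, taken to be the comparison behind the choice, the counts are given to describe the list and nothing is read from them. The fit with the block put 6 members (11.5%) past the threshold, beside 1.76% of all tested genes lower. Without netrin-1 WT library 3 the count was 18 (all tested genes 4.38%), and without all number 3 libraries 29 (all tested genes 9%). The fit without the block called 0 members and 0.0997% of all tested genes. It put 5 members and 1219 of 21053 tested genes at an unadjusted p under 0.05. Without the block DESeq2 called 2 members (1.71% of all genes) and limma-voom 0 (0.123%). In neo1 MUT against control, which shares the control libraries, 10 members (19.2%) were called lower, beside 3.3% of all tested genes and 119 of the other 753 (15.8%); without number 3 the count was 20 (all tested genes 6.62%). The fit without the block again called 0 members, beside 0.128% of all tested genes. It put 6 members and 1529 of 21053 tested genes at an unadjusted p under 0.05. There DESeq2 without the block called 2 members (2.31% of all genes) and limma-voom 0 (0.18%).

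In unc5B MUT against control, 0 members were called with the block (0.00475% of all tested genes lower) or without it (0% of all tested genes). Without it 0 members and 238 of 21053 tested genes had an unadjusted p under 0.05. DESeq2 called 0 members (0.0493% of all genes) and limma-voom 0 (0%). Fitted log2 fold changes of the members lay between -0.29 (Trps1) and 0.25 (Cerk). Their 95% intervals reached -1.02 and 0.98 at the widest, so for many single genes the interval still held a decrease of the size seen in neo1 MUT; for Rangap1 the interval was -0.32 to 0.22 and for Ly6e -0.06 to 0.35. In unc5B MUT against netrin-1 WT, Eif3h, Ly6e and Bik were called higher (1% of all tested genes higher), and without netrin-1 WT library 3 the count was 18 (4.29%). The fit without the block called 0 members there (0% of all tested genes). It put 6 members and 1059 of 21053 tested genes at an unadjusted p under 0.05. In that comparison DESeq2 called 1 member (0.966% of all genes) and limma-voom 0 (0%). In neo1 MUT against netrin-1 WT 0 members were called lower with the block (1.6% of all tested genes) and 0 without it (0.076%). Without it 1 member, which was higher, and 1015 of 21053 tested genes had an unadjusted p under 0.05. DESeq2 called 0 members (1.21%) and limma-voom 0 (0.076%). With the block, the members' median log2 fold change in that comparison was -0.09 with netrin-1 WT library 3 and 0.05 without it. Without that library 0 members were called lower (1.35% of all tested genes).

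**Figure D5:**
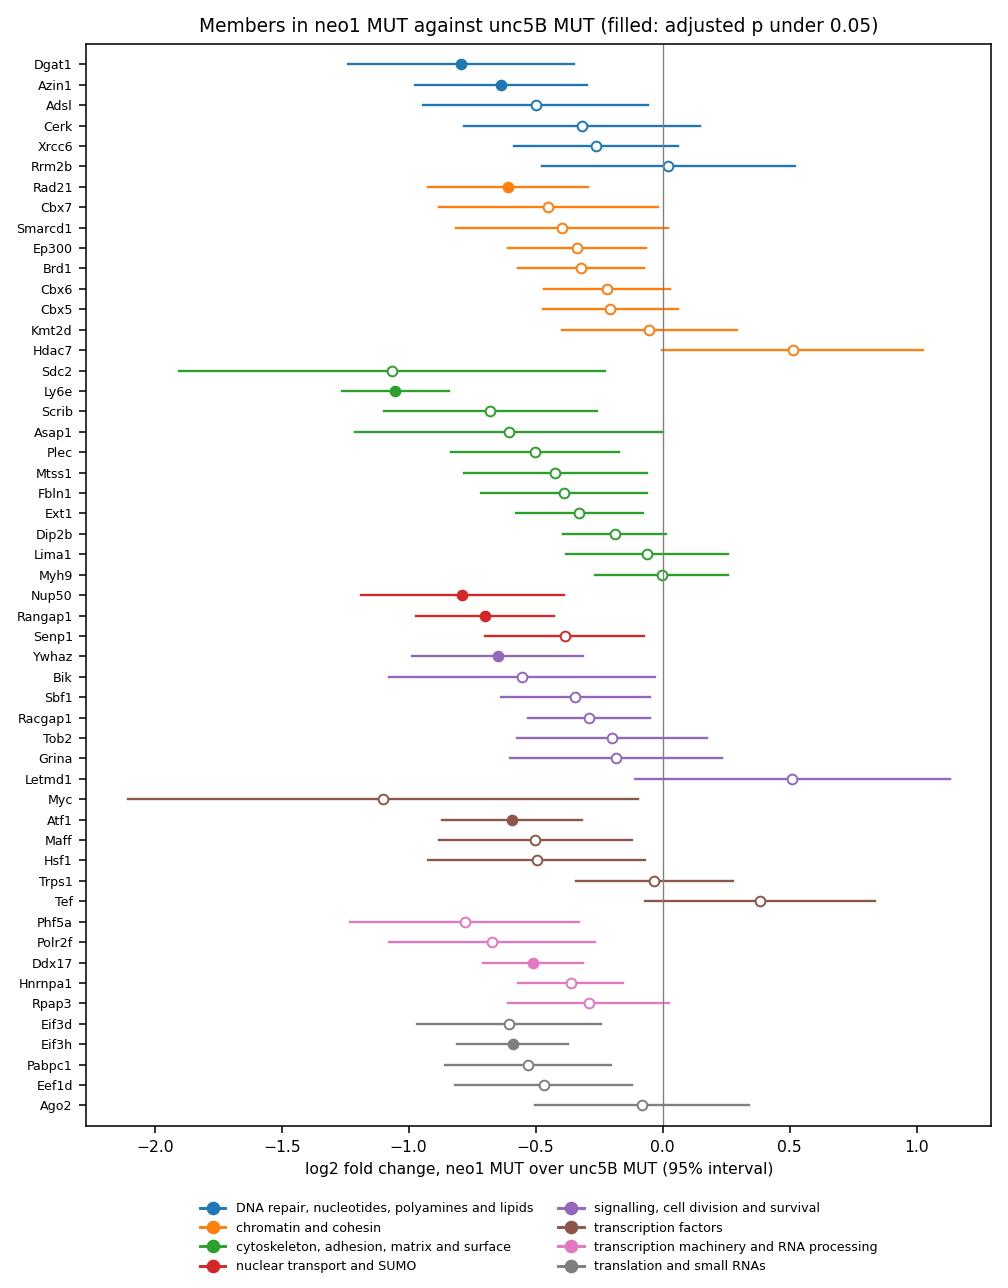
Log2 fold change of each of the 52 members in neo1 MUT over unc5B MUT with its 95% interval, from the edgeR fit with the library number as a block; colours are role groups, and filled points have an adjusted p under 0.05. All but 4 points lie below 0, and Ly6e has the narrowest interval among the members below -1.

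Before the values by role, a set of promoters is printed: 3 genes called lower in neo1 MUT against unc5B MUT, a pair of neighbours that start next to each other on opposite strands, and 2 members that were not lower. RefSeq promoter windows (build GRCm38.p6, 250 bases before to 50 after the start) matched 30 of the 52 members. All 30 lie from Myh9 onward along the chromosome, and members before Myh9, Myc and Rad21 among them, have no window. Where a gene has several starts the window nearest to the GENCODE start was taken. Some windows still lie far from that start, such as Lima1 (55307 bases) and Cbx7 (38473 bases). Bases are in lower case, and capitals mark CACGTG (the E-box that Myc and Max bind), CCAAT in either orientation (ATTGG on the printed strand) and the core of the NRF1 motif in either orientation. Coordinates run chr15:84923178-84923477 on the plus strand for Nup50, chr15:100227609-100227908 plus for Atf1, chr15:79546692-79546991 minus for Ddx17, chr15:103239803-103240102 minus for Cbx5, chr15:103240147-103240446 plus for Hnrnpa1, chr15:97844453-97844752 minus for Hdac7 and chr15:100468761-100469060 plus for Letmd1.
Nup50: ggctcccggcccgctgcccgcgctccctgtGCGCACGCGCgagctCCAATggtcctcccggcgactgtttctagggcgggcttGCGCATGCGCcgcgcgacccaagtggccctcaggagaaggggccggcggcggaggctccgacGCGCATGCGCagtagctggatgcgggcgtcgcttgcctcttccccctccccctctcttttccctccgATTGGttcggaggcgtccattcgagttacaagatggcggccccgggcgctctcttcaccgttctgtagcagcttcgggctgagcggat
Atf1: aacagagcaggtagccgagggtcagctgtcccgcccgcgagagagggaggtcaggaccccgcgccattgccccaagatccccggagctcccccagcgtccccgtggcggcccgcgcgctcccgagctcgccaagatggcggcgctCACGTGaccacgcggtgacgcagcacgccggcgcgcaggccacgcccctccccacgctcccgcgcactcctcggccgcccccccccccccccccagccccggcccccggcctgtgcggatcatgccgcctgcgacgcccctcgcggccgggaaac
Ddx17: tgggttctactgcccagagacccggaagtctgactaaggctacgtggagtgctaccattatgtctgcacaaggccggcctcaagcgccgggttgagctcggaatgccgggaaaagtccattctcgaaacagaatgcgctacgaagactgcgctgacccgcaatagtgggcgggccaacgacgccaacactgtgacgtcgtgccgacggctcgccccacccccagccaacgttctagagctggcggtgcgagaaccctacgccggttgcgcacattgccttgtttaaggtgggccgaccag
Cbx5: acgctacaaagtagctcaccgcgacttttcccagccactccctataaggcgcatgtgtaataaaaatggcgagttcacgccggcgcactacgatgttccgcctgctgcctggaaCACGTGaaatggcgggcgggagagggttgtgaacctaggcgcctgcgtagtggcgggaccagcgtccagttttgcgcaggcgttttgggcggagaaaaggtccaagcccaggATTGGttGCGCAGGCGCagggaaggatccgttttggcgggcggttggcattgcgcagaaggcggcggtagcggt
Hnrnpa1: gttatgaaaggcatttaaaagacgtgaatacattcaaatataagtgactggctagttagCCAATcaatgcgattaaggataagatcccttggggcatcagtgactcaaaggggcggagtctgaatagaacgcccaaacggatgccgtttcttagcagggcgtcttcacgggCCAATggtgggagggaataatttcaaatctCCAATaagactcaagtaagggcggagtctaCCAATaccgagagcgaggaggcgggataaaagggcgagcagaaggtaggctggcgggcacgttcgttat
Hdac7: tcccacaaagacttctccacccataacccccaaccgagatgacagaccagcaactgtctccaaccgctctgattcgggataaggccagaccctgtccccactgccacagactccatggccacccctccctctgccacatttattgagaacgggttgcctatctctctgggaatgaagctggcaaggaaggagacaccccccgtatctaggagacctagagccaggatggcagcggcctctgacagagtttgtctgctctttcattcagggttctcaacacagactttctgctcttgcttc
Letmd1: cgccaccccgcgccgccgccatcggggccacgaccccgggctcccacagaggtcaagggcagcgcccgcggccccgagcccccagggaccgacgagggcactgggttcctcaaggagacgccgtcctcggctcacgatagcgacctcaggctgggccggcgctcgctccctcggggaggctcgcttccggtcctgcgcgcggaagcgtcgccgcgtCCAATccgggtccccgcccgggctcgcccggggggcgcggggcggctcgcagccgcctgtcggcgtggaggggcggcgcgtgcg

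No motif was common to the whole printed set. GGGCGG, searched in either orientation but not marked, stood in every printed window except that of Hdac7, and TATAAA in none. An E-box stood in the Atf1 and Cbx5 windows, and the NRF1 core in those of Nup50 and Cbx5. CCAAT stood in the windows of Nup50, Cbx5, Hnrnpa1 and Letmd1. The windows held 36 CpG dinucleotides in Nup50, 40 in Atf1, 27 in Ddx17, 29 in Cbx5, 16 in Hnrnpa1, 6 in Hdac7 and 48 in Letmd1, so Letmd1, which was not lower, had the most and Hdac7 the fewest. Over the 30 matched members, 20% held an E-box, 36.7% CCAAT and 13.3% the NRF1 core on either strand, with a median of 26 CpG. Over 13008 tested genes with a window these shares were 9.72%, 38.9% and 8.91%, with a median of 19 CpG, and over all 27025 genes with a window 7.24%, 37.9% and 4.78%, with 7 CpG. GGGCGG stood in 76.7% of the 30 matched members, 59.1% of the tested genes and 35.9% of all genes with a window. For TATAAA these shares were 3.33%, 8.22% and 14.2%. For these wider sets the first listed window of each gene was used, not the nearest to the GENCODE start. The members' shares and these are thus not taken from like windows. The motifs were searched separately and a match is a run of letters, not a shown binding site.

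Nuclear transport and SUMO members had the lowest median of the 8 role groups in neo1 MUT against unc5B MUT, at -0.70, with 2 of 3 called. Rangap1, which activates the GTPase of Ran at the cytoplasmic face of the nuclear pore, had 303.2, 271.7 and 276.9 CPM in neo1 MUT libraries 1, 2 and 3, 510.8, 458.7 and 414.9 in unc5B MUT, 298.9, 297.2 and 356.5 in netrin-1 WT, and 524.1, 498.1 and 412.0 in control. All 6 neo1 MUT and netrin-1 WT libraries lay below all 6 unc5B MUT and control libraries. Such splits include libraries behind the choice and were not counted over all tested genes, so they only describe the members. The log2 fold change of Rangap1 was -0.70 ± 0.12 in neo1 MUT against unc5B MUT (adjusted p = 0.0131 by edgeR). In netrin-1 WT against control it was -0.58 ± 0.12. Nup50, a nuclear pore protein whose promoter is printed above, had 151.0, 150.7 and 79.1 CPM in neo1 MUT, against 265.5, 234.1 and 151.0 in unc5B MUT, and was called (-0.79 ± 0.18, adjusted p = 0.0356). Senp1, a protease that removes SUMO, had 71.9, 94.9 and 41.9 CPM in neo1 MUT, 94.9, 100.7 and 69.3 in unc5B MUT, 76.8, 83.9 and 64.0 in netrin-1 WT, and 88.6, 98.5 and 71.9 in control, with groups that overlapped and no call (-0.39 ± 0.14 in neo1 MUT against unc5B MUT).

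Of 5 translation members, all were below 0 in neo1 MUT against unc5B MUT, with a median of -0.53, and Eif3h was called. Pabpc1, the poly(A)-binding protein of the cytoplasm and the member with the highest CPM (not scaled to gene length), had 1894, 1390 and 3792 CPM in neo1 MUT libraries 1, 2 and 3, 2504, 2191 and 5557 in unc5B MUT, 1337, 1355 and 4816 in netrin-1 WT, and 2228, 2479 and 6477 in control. The number 3 library was the highest of its group in each case, so groups overlapped, while within each number both netrin-1 WT and neo1 MUT lay below control. Its log2 fold change was -0.67 ± 0.15 in netrin-1 WT against control and -0.53 ± 0.15 in neo1 MUT against unc5B MUT, where the adjusted p was 0.067. Eif3h, a subunit of the initiation factor eIF3, had 315.4, 312.3 and 464.3 CPM in neo1 MUT, against 498.8, 455.0 and 689.0 in unc5B MUT, and was called at -0.59 ± 0.10 (adjusted p = 0.0113). Ago2, the slicing Argonaute of small-RNA silencing, was at -0.08 ± 0.19, with 258.5, 293.8 and 183.6 CPM in neo1 MUT, 280.7, 241.3 and 254.5 in unc5B MUT, 218.7, 229.8 and 324.8 in netrin-1 WT, and 253.4, 295.6 and 266.7 in control. Eif3d and Eef1d were at -0.61 ± 0.16 and -0.47 ± 0.16 in neo1 MUT against unc5B MUT and were not called. Eif3d was far higher in number 3 of every group. Its CPM in libraries 1, 2 and 3 were 262.0, 198.2 and 2496 in neo1 MUT and 359.4, 306.8 and 4181 in unc5B MUT. They were 219.2, 201.4 and 3845 in netrin-1 WT and 385.7, 346.6 and 3562 in control.

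Of 5 members in transcription machinery and RNA processing, all were below 0 in neo1 MUT against unc5B MUT, with a median of -0.51, and Ddx17 was called. Hnrnpa1, a splicing regulator, had 1538, 1433 and 772.5 CPM in neo1 MUT libraries 1, 2 and 3, 1897, 1822 and 1050 in unc5B MUT, 1390, 1600 and 889.6 in netrin-1 WT, and 1858, 2056 and 1090 in control. Number 3 was the lowest library of each group, and within each number neo1 MUT lay below unc5B MUT; the log2 fold change was -0.36 ± 0.09 with an adjusted p of 0.0515. Its head-to-head neighbour Cbx5, printed beside it above, was at -0.21 ± 0.12. Ddx17, an RNA helicase, had 486.0, 551.2 and 353.8 CPM in neo1 MUT, against 758.2, 751.1 and 480.9 in unc5B MUT (-0.51 ± 0.09, adjusted p = 0.013). Phf5a, a component of the SF3b splicing complex, had 84.8, 56.7 and 75.4 CPM in neo1 MUT, 136.1, 100.4 and 136.6 in unc5B MUT, 61.9, 60.7 and 118.8 in netrin-1 WT, and 101.3, 115.1 and 110.8 in control. The neo1 MUT and unc5B MUT groups of Phf5a did not overlap, and its fold change of -0.78 ± 0.21 had an adjusted p of 0.0556. Rpap3, a co-chaperone in the assembly of RNA polymerase II, had 50.2, 37.4 and 40.7 CPM in neo1 MUT, 55.2, 50.6 and 50.5 in unc5B MUT, 42.3, 41.8 and 56.5 in netrin-1 WT, and 58.0, 53.7 and 50.8 in control, a change of -0.29 ± 0.14 in neo1 MUT against unc5B MUT. Polr2f, a subunit shared by the nuclear RNA polymerases, was at -0.67 ± 0.18 with groups that did not overlap and was not called.

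Of 6 transcription factors, 5 were below 0 in neo1 MUT against unc5B MUT, with a median of -0.50, and Atf1 was called. Myc had 32.8, 15.8 and 18.3 CPM in neo1 MUT libraries 1, 2 and 3, 64.5, 43.3 and 34.3 in unc5B MUT, 25.1, 13.0 and 28.1 in netrin-1 WT, and 72.3, 64.7 and 13.0 in control. All neo1 MUT libraries lay below all unc5B MUT libraries, while control library 3 was as low as the lowest netrin-1 WT library. The spread was wide: the log2 fold change of Myc in neo1 MUT against unc5B MUT was -1.10 ± 0.46, with a 95% interval of -2.11 to -0.10 and an adjusted p of 0.198. Atf1, a factor of the CREB family, had 97.7, 100.5 and 219.1 CPM in neo1 MUT, 154.1, 139.8 and 342.6 in unc5B MUT, 98.7, 98.8 and 290.9 in netrin-1 WT, and 159.0, 150.0 and 298.3 in control. Within each number Atf1 was lower in neo1 MUT than in unc5B MUT, and the change was -0.59 ± 0.13 (adjusted p = 0.0261). Maff, a small Maf protein, had 15.2, 12.5 and 6.40 CPM in neo1 MUT, 16.6, 18.7 and 11.4 in unc5B MUT, 23.4, 22.2 and 10.4 in netrin-1 WT, and 16.02, 19.0 and 10.2 in control. It lay above control within each number in netrin-1 WT (0.28 ± 0.17) and below unc5B MUT within each number in neo1 MUT (-0.50 ± 0.17, adjusted p = 0.127). Hsf1, the regulator of the heat-shock response, was at -0.50 ± 0.19, Trps1 at -0.03 ± 0.14 and Tef, a PAR bZIP factor, at 0.38 ± 0.21 in the same comparison, and none of the 3 was called.

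Of 9 chromatin and cohesin members, 8 were below 0 in neo1 MUT against unc5B MUT, with a median of -0.32, and Rad21 was called. Rad21, the kleisin subunit that closes the cohesin ring, had 353.3, 406.5 and 211.9 CPM in neo1 MUT libraries 1, 2 and 3, 565.7, 536.4 and 357.9 in unc5B MUT, 377.2, 382.6 and 317.8 in netrin-1 WT, and 604.6, 594.1 and 305.2 in control. Number 3 was the lowest library of each group, and netrin-1 WT library 3 lay above control library 3. The change was -0.61 ± 0.14 in neo1 MUT against unc5B MUT (adjusted p = 0.0381). Cbx5, the heterochromatin protein HP1 alpha, had 493.1, 464.8 and 282.7 CPM in neo1 MUT, 573.0, 604.9 and 287.7 in unc5B MUT, 423.5, 430.5 and 262.8 in netrin-1 WT, and 604.4, 597.3 and 256.2 in control; its groups overlapped. Hdac7, a class IIa histone deacetylase, had 7.82, 6.67 and 17.6 CPM in neo1 MUT, 3.54, 5.58 and 16.2 in unc5B MUT, 6.13, 6.23 and 18.9 in netrin-1 WT, and 4.23, 4.19 and 19.4 in control. It was at 0.51 ± 0.23 in neo1 MUT against unc5B MUT, with an interval of -0.004 to 1.03. Cbx7, Smarcd1, Ep300, Brd1, Cbx6 and Kmt2d, which encode a Polycomb chromatin reader, a subunit of the BAF remodelling complex, a histone acetyltransferase, a bromodomain protein, a second CBX protein and an H3K4 methyltransferase, lay between -0.45 and -0.05 and were not called.

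Of 6 members in DNA repair, nucleotides, polyamines and lipids, 5 were below 0 in neo1 MUT against unc5B MUT, with a median of -0.41, and Azin1 and Dgat1 were called. Azin1, the antizyme inhibitor that raises polyamine synthesis, had 139.9, 103.5 and 138.7 CPM in neo1 MUT libraries 1, 2 and 3, 210.4, 192.9 and 185.1 in unc5B MUT, 121.8, 98.8 and 162.4 in netrin-1 WT, and 185.2, 187.9 and 175.5 in control. All netrin-1 WT and neo1 MUT libraries lay below all unc5B MUT and control libraries, which only describes Azin1, as for Rangap1. The change was -0.64 ± 0.15 in neo1 MUT against unc5B MUT (adjusted p = 0.0416 by edgeR). Dgat1, an enzyme of triglyceride synthesis, had 13.7, 8.16 and 35.6 CPM in neo1 MUT, against 21.1, 16.1 and 62.3 in unc5B MUT (-0.80 ± 0.20, adjusted p = 0.0491). Xrcc6, the Ku70 subunit of the end-joining complex, had 118.2, 84.4 and 302.9 CPM in neo1 MUT, 108.3, 115.3 and 432.0 in unc5B MUT, 88.7, 90.5 and 361.7 in netrin-1 WT, and 101.6, 121.1 and 438.7 in control, with groups that overlapped. Rrm2b, the p53-inducible subunit of ribonucleotide reductase, did not follow the chromosome, with 12.01, 14.9 and 11.4 CPM in neo1 MUT, 11.2, 13.4 and 13.7 in unc5B MUT, 11.1, 14.51 and 20.8 in netrin-1 WT, and 11.8, 11 and 20.3 in control (0.02 ± 0.23). Adsl, of purine synthesis, and Cerk, the ceramide kinase, were at -0.50 ± 0.20 and -0.32 ± 0.21 and were not called.

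Of 7 members in signalling, cell division and survival, 6 were below 0 in neo1 MUT against unc5B MUT, with a median of -0.29, and Ywhaz was called. Ywhaz, the zeta member of the 14-3-3 phosphoprotein-binding family, had 511.4, 499.3 and 2543 CPM in neo1 MUT libraries 1, 2 and 3, 825.5, 748.4 and 4058 in unc5B MUT, 476.7, 492.0 and 3839 in netrin-1 WT, and 855.5, 793.9 and 3637 in control. Number 3 was several times above the others in every group, so the groups overlapped, and within each number neo1 MUT lay below unc5B MUT (-0.65 ± 0.15, adjusted p = 0.0384). Bik, a BH3-only apoptosis inducer, was a low gene, with 3.65, 4.39 and 5.25 CPM in neo1 MUT, 4.60, 5.97 and 9.56 in unc5B MUT, 2.53, 2.20 and 3.92 in netrin-1 WT, and 6.02, 6.41 and 6.03 in control. Its change was -1.15 ± 0.24 in netrin-1 WT against control and -0.55 ± 0.24 in neo1 MUT against unc5B MUT, the second not called. Sbf1, a pseudophosphatase of the myotubularin family, had 97.1, 80.2 and 635.6 CPM in neo1 MUT, 101.2, 113.9 and 889.2 in unc5B MUT, 90.7, 110.9 and 831.1 in netrin-1 WT, and 108.4, 124.2 and 721.4 in control, with groups that overlapped. Racgap1, part of the centralspindlin complex of cytokinesis, was at -0.29 ± 0.11, Tob2 at -0.20 ± 0.17, Grina at -0.18 ± 0.19 and Letmd1 at 0.51 ± 0.28, and none was called.

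Of 11 members in cytoskeleton, adhesion, matrix and surface, all were below 0 in neo1 MUT against unc5B MUT, with a median of -0.42, and Ly6e was called. Ly6e, a GPI-anchored surface protein of the Ly6 family, had 51.9, 49.4 and 64.8 CPM in neo1 MUT libraries 1, 2 and 3, 107.4, 112.4 and 122.4 in unc5B MUT, 57.2, 56.6 and 73.6 in netrin-1 WT, and 97.4, 97.8 and 115.0 in control. All 6 libraries of netrin-1 WT and neo1 MUT lay below all 6 of unc5B MUT and control, netrin-1 WT library 3 included. As for Rangap1, that split only describes Ly6e. Its change of -1.05 ± 0.10 in neo1 MUT against unc5B MUT (adjusted p = 0.00048, 95% interval -1.26 to -0.84) had the smallest adjusted p of the members, and its interval lay below the chromosome's median of -0.49. Myh9, the heavy chain of non-muscle myosin IIA, had 547.8, 538.1 and 2033 CPM in neo1 MUT, 483.1, 523.5 and 2389 in unc5B MUT, 412.5, 459.5 and 1998 in netrin-1 WT, and 513.6, 670.5 and 2098 in control, and was at -0.004 ± 0.12 in neo1 MUT against unc5B MUT. Sdc2, the heparan sulfate proteoglycan syndecan 2, had the lowest mean CPM of the members, with 1.60, 1.86 and 0.525 CPM in neo1 MUT, 2.80, 4.14 and 1.41 in unc5B MUT, 2.51, 1.75 and 2.33 in netrin-1 WT, and 2.83, 3.35 and 1.23 in control. Its change of -1.07 ± 0.38 was as large as that of Ly6e but had an interval of -1.90 to -0.23 and was not called. Scrib, Asap1, Plec, Mtss1, Fbln1, Ext1, Dip2b and Lima1 lay between -0.68 and -0.06, and the groups of Plec, Mtss1 and Ext1 did not overlap.

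Fold changes were more scattered among members with few counts. Of 14 members under 50 CPM, 10 were below 0 in neo1 MUT against unc5B MUT, with a range of -1.10 to 0.51. All 21 members of 50 to 200 CPM and all 17 members of 200 CPM or more were below 0, with ranges of -1.05 to -0.05 and -0.70 to -0.004. The median SE was 0.21, 0.15 and 0.14 in the 3 classes. All 4 members above 0 were thus in the lowest class.

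Partner genes of the members, wherever they lie, were compared as a list of 106 genes from the same complexes and families, such as cohesin, eIF3, the CBX proteins and the Ran system. In neo1 MUT against unc5B MUT all 15 members on this list were below 0, with a median of -0.40, and so were the 5 partners that lie on chromosome 15 without being members, at -0.52. Of 86 tested partners on other chromosomes 42 were below 0, with a median of 0.004; 2 were called lower (Eif3b and Mxd4) and 2 higher (Smarcd3 and Prkdc). Within eIF3 the 4 subunits on chromosome 15 had a median of -0.60 and the other 9 a median of 0.01. Eif3e had 192.9 CPM in neo1 MUT, against 275.4 in unc5B MUT (means, n = 3 each; -0.52 ± 0.10, adjusted p = 0.0165), and Eif3l was at -0.63 ± 0.14 (adjusted p = 0.0298). Of 21 genes of the Myc network and its targets, none on chromosome 15, 14 were below 0, with a median of -0.08, and 1, Mxd4, was called lower.

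Of genes on the chromosome that are not members, Dab2, Lrrk2, Fam83h, Cmbl and Oplah had the lowest called values in netrin-1 WT against control, and Nptxr was the one that passed the same limits on level among those called higher. In neo1 MUT against unc5B MUT, Dab2, an endocytic adaptor and endoderm marker, averaged 11.8 ± 8.1 CPM in neo1 MUT and 48.4 ± 4.8 CPM in unc5B MUT (SD, n = 3 each; log2 fold change -2.10 ± 0.43 SE, adjusted p = 0.0235 by edgeR). Lrrk2, a large kinase, averaged 1.10 CPM in neo1 MUT and 9.79 CPM in unc5B MUT and fell further still (-3.09 ± 0.33, adjusted p = 0.00106 by edgeR). Fam83h, Cmbl, Oplah and Nptxr lay between -0.90 and 0.05 in that comparison and were not called. Both called genes lay below every member.

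Genes that mark primitive endoderm, an extraembryonic lineage of the early embryo, had their lowest sums in neo1 MUT and netrin-1 WT within each number. Their summed level over 12 genes was 488, 299 and 599 CPM in neo1 MUT libraries 1, 2 and 3, 1067, 732 and 2058 in unc5B MUT, 345, 308 and 747 in netrin-1 WT, and 1306, 1187 and 2695 in control, and none of the 12 was at 0 in a group. All 12 were called lower in neo1 MUT against unc5B MUT with the block and 0 without it. In unc5B MUT against control, where the chromosome 15 median was 0.04, the sum was lower in each number and 11 of the 12 markers were below 0, with a median of -0.56 and 0 called. Of 6 tested fibroblast or feeder markers, Thy1 (-1.43 ± 0.28, adjusted p = 0.0196 by edgeR) and Vim (-0.98 ± 0.15, adjusted p = 0.00629 by edgeR) were called lower in neo1 MUT against unc5B MUT, while the median of the 6 was 0.34. In netrin-1 WT library 3 the sum was below that of control library 3, while its chromosome 15 share was 0.975 times that of control library 3. Of the 12 markers 1, Dab2, lies on chromosome 15; without it the sum was 737 CPM in netrin-1 WT library 3 and 2602 CPM in control library 3. Summed over 8 embryonic stem cell markers the level was 3257 to 3887 CPM in neo1 MUT, 3489 to 4045 in unc5B MUT, 3958 to 4110 in netrin-1 WT and 3428 to 4042 in control. In these bulk libraries fewer cells of a type and less RNA per cell cannot be told apart, and the part of endoderm or feeder cells in the members' values was not tested.

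The authors' deposited table gave 15 members as lower in neo1 MUT against unc5B MUT at an adjusted p under 0.05, all 10 called here among them, beside 4.17% of its 20347 genes. Against control, the authors' deposited table gave 12 members as lower in neo1 MUT (3.6% of all genes) and 0 in unc5B MUT (0.0197%). In netrin-1 WT against control, taken to be the comparison behind the choice, it gave 8 (2.31%). Against netrin-1 WT, the authors' deposited table gave 1 member, Maff, as lower in neo1 MUT (1.7% of all genes) and 6 as higher in unc5B MUT (1.63%). Ly6e, Rpap3 and Atf1 have annotated pseudogenes named after them, and the sources used here do not say how reads of near-identical copies were divided, so their levels carry that uncertainty.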

How the data were processed

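RNA-seq of 12 libraries in 4 groups of 3 was analysed, each library placed by its label. The deposited table holds estimated counts per Ensembl gene, which need not be whole, and the submitters' processing notes name STAR 2.5.2b, Bowtie2, FastQC 0.11.5, R 3.3.2 and DESeq2, and, as builds, GRCm38.p5, mm10 and GRCh38, all without roles. Log2 fold changes and adjusted p-values in the authors' deposited table are used as theirs; the model behind them is not stated by the file headers. The design assumed counts; the estimated counts were rounded to whole numbers. No columns of other samples were present. Of 52661 IDs, 52566 matched GENCODE M21, and filterByExpr kept 21053 genes.

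The planned test was edgeR 4.0.16 quasi-likelihood (R 4.3.3, TMM, all 12 libraries, group only) with Benjamini-Hochberg adjustment over all tested genes; a replicate block was the other design. The numbers were taken to pair the libraries, since deviations of same-numbered libraries correlated at 0.58 to 0.881; numbers 1 and 2 also correlated (0.492 to 0.758), and number 3 with another reached at most -0.597. DESeq2 1.42.0 and limma 3.58.1 (voom) were alternatives. Chromosome medians use genes above 10 CPM, and log2 CPM within a number uses a prior count of 2. Depth limits low genes most. The code was tested on simulated data.

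The members and all gene lists were chosen with earlier results of these data known. Values in every library are given, in each role group, for the member with the highest mean CPM and those with the lowest and the highest log2 fold change in netrin-1 WT against control, plus Myc and Rad21. Of non-members on chromosome 15, at most 5 called each way in that comparison, with 5 CPM or more in the higher group, are named. Nup50, Eif3h, Eif3d, Ddx17 and Dgat1 fall outside this rule and were added after their values were seen.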

Additional observations from a re-analysis of the deposited data

Results flagged for a closer look

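For 10 members the change against control was called different between neo1 MUT and unc5B MUT in the edgeR fit with the replicate block. The comparison was neo1 MUT against unc5B MUT (n = 3 libraries a group), and each of the 10 was lower within all 3 numbers. The list was drawn up with results of these libraries known, so these calls only describe the members and are no independent test. The log2 differences were -1.052 for Ly6e, -0.591 for Eif3h, -0.51 for Ddx17, -0.699 for Rangap1 and -0.593 for Atf1. For the other 5 they were -0.788 for Nup50, -0.608 for Rad21, -0.649 for Ywhaz, -0.637 for Azin1 and -0.795 for Dgat1. Ly6e alone of these stayed called when each of 6 libraries was left out in turn, and without the block 0 of the 10 were called by edgeR. With the block, the 10 were 19.2% of the members, beside 3.28% of all tested genes and 17.3% of the other 753 genes of the chromosome called lower. The chromosome as a whole differed by -0.492 between the same groups, and the part of copy number was not tested.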

How the results depend on the processing

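Counts of called members depended on the replicate block and on the number 3 libraries; the edgeR fit of all libraries without the block called 0. Percentages in brackets are the shares of all genes called by the same fit, in either direction. With the block edgeR called 6 members (3.5%) in netrin-1 WT against control and 10 (5.26%) in neo1 MUT against control. It called 3 (1.97%) in unc5B MUT against netrin-1 WT and 10 (4.87%) in neo1 MUT against unc5B MUT. DESeq2 with the block called 11 (10.1%), 20 (12.4%), 11 (8.76%) and 18 (11.7%) in that order, and 3 (6.24%) in neo1 MUT against netrin-1 WT. Without the block it called 2 (1.71%), 2 (2.31%), 1 (0.966%) and 2 (2.06%), with an adjusted p for 48 of the 52 members. With the block and TMM computed without chromosome 15 and proximal chromosome 3 the counts were 7 (3.52%), 11 (5.3%), 3 (1.96%) and 11 (5.05%). Keeping genes with at least 1 CPM in 3 libraries, without the block, gave 1 (0.192%) in neo1 MUT against unc5B MUT. With only the 2 groups compared, a fit added after seeing the data, the block gave 2 (1.42%) in neo1 MUT against control, 1 (0.936%) in unc5B MUT against netrin-1 WT and 24 (10.8%) in neo1 MUT against unc5B MUT.

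Leaving out replicates gave 0 to 29 members in netrin-1 WT against control, 0 to 20 in neo1 MUT against control, 0 to 22 in unc5B MUT against netrin-1 WT, 0 to 18 in neo1 MUT against unc5B MUT, and 0 in the other comparisons. The highest counts came without all number 3 libraries, with the block (a fit added after seeing the data; 16.3%, 10.5%, 13.4% and 10%). Without the block these were 16 (4.22%), 9 (2.76%), 8 (2.03%) and 10 (2.32%). With the block, leaving out single libraries gave 2 to 18 (0.971% to 8.43%), 1 to 14 (1.28% to 5.03%; 5 members without neo1 MUT library 1), 1 to 18 (0.163% to 8.29%) and 1 to 4 (0.61% to 2.25%). The members' median log2 fold change ranged over these settings from -0.564 to -0.184, -0.532 to -0.322, 0.130 to 0.503 and -0.530 to -0.253, from -0.083 to 0.092 in unc5B MUT against control and from -0.206 to 0.166 in neo1 MUT against netrin-1 WT. With the block it was 0.452 in unc5B MUT against netrin-1 WT without netrin-1 WT library 3, 0.411 without number 3, and -0.333 in neo1 MUT against unc5B MUT without neo1 MUT library 3.

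Without the 1% most abundant genes, the log2 ratio of the chromosome 15 share to control moved to -0.399 in neo1 MUT library 3, 0.021 in unc5B MUT library 1 and 0.079 in unc5B MUT library 3, and that of the members' share to -0.324, 0.023 and 0.104 in the same libraries. In netrin-1 WT library 3 the members' ratio turned to 0.064, against -0.037 with all genes. The causes of these shifts were not tested. Low depth in number 3 and low counts of Sdc2 and Bik limit single genes.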
